A study of Mus musculus with 6 samples.

Results

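Canonical Wnt signalling was examined through 10 genes, Tcf7l2, Tcf7l1, Tcf7, Lef1, Ctnnb1, Apc, Axin2, Apcdd1, Sox17 and Nkd1, in oligodendrocytes taken fresh from adult mouse brain. They were chosen by name, as effectors, targets and inhibitors of the pathway known in oligodendrocyte maturation, and all 10 were found among the 46983 features of the table. The study compared 3 control libraries, labelled WT, with 3 Qk-KO libraries. Qk-KO mice carry floxed Qk alleles and a CreERT2 transgene, a tamoxifen-activated Cre recombinase, driven in myelin-forming cells. Qk encodes quaking, an RNA-binding protein of myelin-forming cells. Mice of both groups were FvB/C57BL6 hybrids, received tamoxifen at 8 weeks of age, and were sampled 4 days later. The labels do not state which alleles the WT controls carry, how the cells were isolated, or whether the libraries of a group came from different mice. The p-values below therefore reflect only how far these libraries differ, which may be technical.

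When a Wnt ligand binds a Frizzled receptor and its Lrp5 or Lrp6 co-receptor, a cytoplasmic destruction complex built on Apc and Axin is held back, and beta-catenin (Ctnnb1) accumulates and enters the nucleus. There it binds the TCF/LEF family of DNA-binding proteins, which otherwise sit on target genes with repressors. In the oligodendrocyte lineage Tcf7l2 marks cells that are starting to differentiate and takes part in their maturation, while sustained beta-catenin activity is known to delay it. In brain endothelial cells the same pathway maintains the blood-brain barrier, and Lef1, Axin2, Apcdd1 and Sox17 are known to be active there.

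Qk itself showed no called change in the libraries labelled Qk-KO. Its regularized log2 values (log2 normalized counts in which low counts are drawn towards the gene's mean) were 15.42, 15.67 and 15.31 in WT, against 16.10, 15.62 and 15.30 in Qk-KO, which overlapped (change 0.21 ± 0.25, SE, limma adjusted p = 0.567). A gene-level value includes exons outside a floxed segment, which the labels do not name, so it does not check the labels, and Qk-KO below means the libraries so labelled. The libraries were also of unequal kinds. In the 3 WT libraries and Qk-KO replicate 1, 4 ribosomal RNA features (Gm42418, Gm26917, mt-Rnr1 and mt-Rnr2) held 59.8% to 64.8% of the signal, against 2.23% and 1.88% in Qk-KO replicates 2 and 3. Approximate reads outside these features were 8.70 to 13.1 Mreads in the former and 77.1 and 70.0 Mreads in the latter. No WT library had a low ribosomal share, so within that kind the genotypes cannot be compared, and results for the members are also given for Qk-KO replicate 1 set alone against the controls. Mature oligodendrocyte markers were all above the detection filter (20 of 20 tested, mean normalized count of at least 20).

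Relative to the median gene, 7 of the 10 Wnt genes fell in Qk-KO, none rose and 3 did not pass the test (limma, Benjamini-Hochberg adjusted p under 0.05 over 15153 genes), although none was called and 6 changed sign when libraries were scaled by their total. Across all tested genes 28.6% were called, 14.8% lower and 13.8% higher. The members that fell were the 4 TCF/LEF factors Tcf7l2, Lef1, Tcf7l1 and Tcf7, the feedback inhibitors Axin2 and Apcdd1, and Sox17. The median change over all 10 members was -0.81 on the log2 scale, beside 0.03 over all tested genes. In 8 members every Qk-KO library lay below every WT library, as in 21.8% of all tested genes, and in 1, Nkd1, every Qk-KO library lay above, as in 24.5%. When the controls were set against Qk-KO replicate 1 only, 3 members were called, Lef1, Apcdd1 and Sox17, all lower, against 15.5% of all genes called, 9.37% lower and 6.17% higher. The mutant side of that contrast is 1 library, assumed to vary like the controls. Its p-values here and below rest on the controls' spread, moderated by limma over all tested genes, and on no spread among mutants. With library type as a term in the model 2 were called, Lef1 and Apcdd1, both lower, against 14.9% of all genes called, 9.14% lower and 5.76% higher. The changes in that model equal those of Qk-KO replicate 1 alone, as no WT library has a low ribosomal share, so it is not a separate check. Scaling by library total, ribosomal reads included, moved the change of every gene, and so the all-gene median, up by the same 1.06. Each direction given below is therefore relative to the median gene under the authors' scaling. Normalized totals were 52708766 to 57824564 in WT and Qk-KO replicate 1, against 19000308 and 18874704 in Qk-KO replicates 2 and 3. Outside the ribosomal RNA features totals were 18520151 to 21171782 in all libraries. Scaled by the total outside these features, the same 7 members were called lower, with -1.74 for Tcf7l2.

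**Figure D1:**
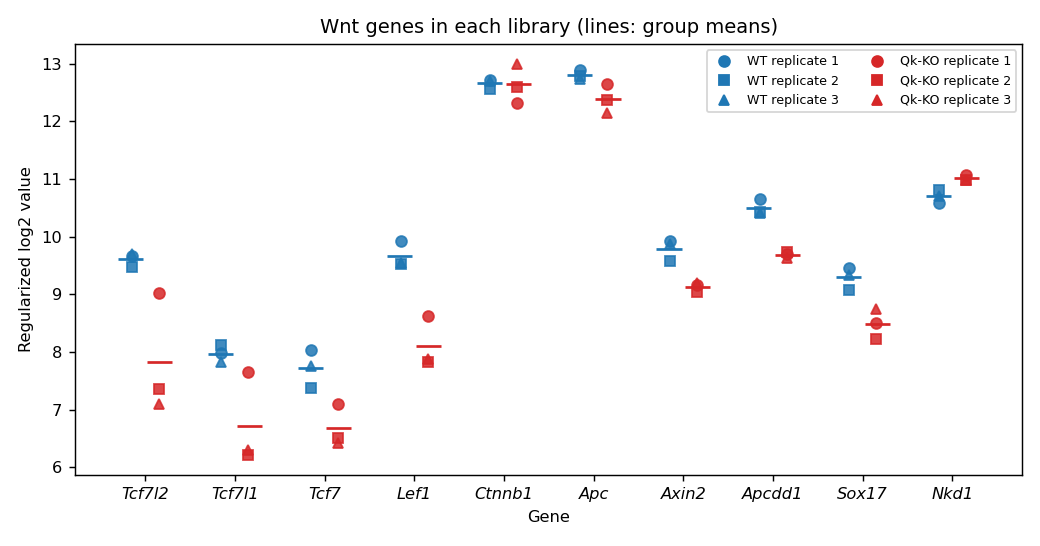
Regularized log2 value (y axis) of the 10 Wnt genes (x axis) in each library, blue for WT, red for Qk-KO, with symbols for replicates 1 to 3 and lines for group means. As the authors scaled the libraries, the 3 Qk-KO points lie below the WT points for 8 genes. For Tcf7l2 and Tcf7l1 Qk-KO replicate 1 stands near WT. Scaling by library total adds the same 1.06 to every gene's mean change, and 6 of the 10 then turn sign.

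Tcf7l2, the TCF factor of differentiating oligodendrocytes (ENSMUSG00000024985.18, chromosome 19, 55741820 to 55933654, plus strand, GENCODE M21 on mm10, as for all members), had regularized log2 values of 9.67, 9.48 and 9.69 in WT replicates 1, 2 and 3 and of 9.02, 7.36 and 7.10 in Qk-KO replicates 1, 2 and 3. The groups did not overlap, and among the mutants replicate 1 stood near WT while replicates 2 and 3 lay far below. With n = 3 libraries a group, Tcf7l2 fell by 1.79 ± 0.44 (SE) on the log2 scale, or 3.45-fold (limma adjusted p = 0.0199). The first mutant library set alone against the controls gave -0.59, which missed the threshold (limma adjusted p = 0.0513). Between Qk-KO replicates 2 and 3 and Qk-KO replicate 1, Tcf7l2 differed by -1.79 ± 0.19 (limma adjusted p = 0.00968), a contrast chosen, for all members, after the values were seen. Its lone replicate 1 has no spread of its own. The error comes from the WT libraries and from replicates 2 and 3, moderated by limma over all tested genes. Only 1.0% of all tested genes were called in that contrast, which compares kinds of library and single mutant libraries. The call did not hold when any control library or Qk-KO replicate 2 was left out, in the order WT replicates 1, 2 and 3 and Qk-KO replicate 2 (limma adjusted p = 0.0698, 0.0555, 0.0706 and 0.0683). The sample identifiers fall in a lower and a higher number series, each with libraries of both groups. The lower holds WT replicate 1 and Qk-KO replicates 1 and 2, the higher WT replicates 2 and 3 and Qk-KO replicate 3. Within them, in that order, the difference was -1.48 and -2.49. For every member the second value thus rests on 1 mutant library, which has a low ribosomal share.

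Tcf7l1, a TCF factor that acts mostly as a repressor of Wnt targets (chromosome 6, 72626378 to 72789254), also had Qk-KO replicate 1 between the controls and the other mutant libraries. Its log2 values were 7.98, 8.12 and 7.82 in WT, against 7.65, 6.21 and 6.30 in Qk-KO. The groups did not overlap, and Qk-KO replicate 1 lay close to WT. The change was -1.25 ± 0.36 (SE, limma adjusted p = 0.0345), and in Qk-KO replicate 1 alone -0.32 (limma adjusted p = 0.389). Qk-KO replicates 2 and 3 differed from replicate 1 by -1.40 ± 0.22 (limma adjusted p = 0.0391). The call was lost when any library but Qk-KO replicate 1 was left out, with limma adjusted p from 0.0664 to 0.113. The number series gave -1.05 and -1.66.

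Lef1, the TCF/LEF factor that is itself a known Wnt target (chromosome 3, 131110471 to 131224356), had log2 values of 9.92, 9.53 and 9.54 in WT, against 8.63, 7.82 and 7.87 in Qk-KO. Every mutant library was below every control, and replicate 1 was the highest of the mutants. It fell by 1.56 ± 0.23 (SE, limma adjusted p = 0.00243), a 2.95-fold lower level, and stayed called without any 1 library. Set alone, Qk-KO replicate 1 gave -1.03 (limma adjusted p = 0.0145). Replicates 2 and 3 differed from replicate 1 by -0.79 ± 0.21, which did not pass (limma adjusted p = 0.158). Within the number series it was -1.70 and -1.67.

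Tcf7, the TCF factor best known from T cells (chromosome 11, 52252371 to 52283014), had about 79 to 133 reads in WT and 85 to 379 in Qk-KO. Its log2 values were 8.04, 7.37 and 7.75 in WT, against 7.10, 6.51 and 6.42 in Qk-KO. WT replicate 2 was only slightly above Qk-KO replicate 1. The change was -1.04 ± 0.24 (SE, limma adjusted p = 0.0157), but -0.62 in Qk-KO replicate 1 alone (limma adjusted p = 0.203). It was not called with WT replicate 1 left out, nor with WT replicate 3 or with Qk-KO replicate 2 (limma adjusted p = 0.0611, 0.0576 and 0.0618). The number series gave -1.24 and -1.14. Of the 15 T cell and lymphocyte markers only 4 passed the filter on low values, and their summed level was 88 to 137 normalized counts in WT and 72 to 82 in Qk-KO, with Cd3d at 0 in all 6 libraries.

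**Figure D2:**
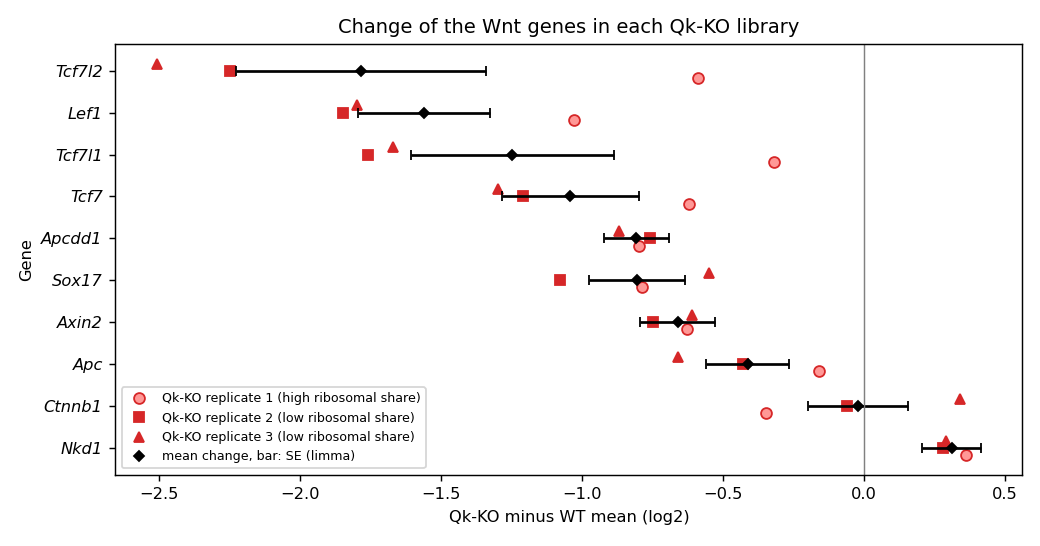
Difference of each Qk-KO library from the WT mean (x axis, log2) for the 10 Wnt genes (y axis), pale circles for replicate 1 and filled symbols for replicates 2 and 3, with the mean change and its SE from limma in black. In the authors' scaling Tcf7l2 lies at -0.59, -2.25 and -2.51 and Apcdd1 at -0.80, -0.76 and -0.87. Scaling by library total adds the same 1.06 to every gene's mean change, and 6 of the 10 then turn sign.

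Ctnnb1, beta-catenin itself (chromosome 9, 120929216 to 120960507), showed no called change. Its log2 values were 12.72, 12.56 and 12.70 in WT, against 12.31, 12.60 and 13.00 in Qk-KO, so that the mutant libraries lay on both sides of the controls. The change was -0.02 ± 0.18 (SE, limma adjusted p = 0.941), with -0.35 in Qk-KO replicate 1 alone (limma adjusted p = 0.140) and -0.26 and 0.37 in the number series. Apc, the scaffold of the destruction complex (chromosome 18, 34220924 to 34322552), had log2 values of 12.88, 12.78 and 12.74 in WT, against 12.64, 12.37 and 12.14 in Qk-KO. Its groups did not overlap, but the change of -0.41 ± 0.15 did not pass (SE, limma adjusted p = 0.0707), and in Qk-KO replicate 1 alone it was -0.16. Within the number series it was -0.37 and -0.62.

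Axin2, a scaffold of the destruction complex and the usual reporter of canonical Wnt activity (chromosome 11, 108920349 to 108950783), had log2 values of 9.93, 9.57 and 9.87 in WT, against 9.16, 9.04 and 9.19 in Qk-KO. The mutant libraries were close together and below all controls. It fell by 0.66 ± 0.13 (SE, limma adjusted p = 0.00876), 1.58-fold, and stayed called without any 1 library. Its change was of like size, -0.63, for the first mutant library alone, without passing (limma adjusted p = 0.0624). The number series gave -0.83 and -0.54. Apcdd1, a membrane inhibitor of Wnt receptors (chromosome 18, 62922231 to 62961179), had log2 values of 10.65, 10.42 and 10.41 in WT, against 9.69, 9.74 and 9.63 in Qk-KO. Its mutant libraries were the most alike after those of Nkd1, with an SD of 0.055. It fell by 0.81 ± 0.11 (SE, limma adjusted p = 0.00189), and by 0.80 in Qk-KO replicate 1 alone (limma adjusted p = 0.0152). The number series gave -0.94 and -0.79.

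Sox17, a transcription factor of endothelium and of the oligodendrocyte lineage (chromosome 1, 4490931 to 4497354), had log2 values of 9.46, 9.08 and 9.33 in WT, against 8.50, 8.22 and 8.74 in Qk-KO. All mutant libraries were lower, with replicate 3 the nearest to WT. It fell by 0.81 ± 0.17 (SE, limma adjusted p = 0.0110), and by 0.79 in Qk-KO replicate 1 alone (limma adjusted p = 0.0354). The number series gave -1.10 and -0.47. Nkd1, an inhibitor that binds Dishevelled (chromosome 8, 88521354 to 88594884), was the only member whose mutant values were all higher. Its log2 values were 10.59, 10.80 and 10.71 in WT, against 11.06, 10.98 and 10.99 in Qk-KO. The change of 0.31 ± 0.11 did not pass (SE, limma adjusted p = 0.0600), and it was 0.36 in Qk-KO replicate 1 alone (limma adjusted p = 0.145) and 0.43 and 0.23 in the number series.

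The 10 members thus differed in how they varied between the mutant libraries. For Axin2, Apcdd1, Sox17 and Nkd1, Qk-KO replicates 2 and 3 differed from replicate 1 by -0.05, -0.01, -0.03 and -0.07 on the log2 scale (limma adjusted p = 0.916, 0.978, 0.971 and 0.832). For Tcf7l2 and Tcf7l1 that difference was as large as, or larger than, the difference from WT in all 6 libraries. What part the kind of library has in the falls of Tcf7l2 and Tcf7l1 was not tested beyond these values.

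In the authors' deposited table the same 7 members have an adjusted p under 0.05, against 32.7% of all tested genes. Its log2 fold changes were -1.62 for Tcf7l2, -1.34 for Tcf7l1, -1.51 for Tcf7, -1.86 for Lef1, -0.83 for Axin2, -0.99 for Apcdd1 and -1.01 for Sox17 in the authors' deposited table. Apc (-0.46, adjusted p = 0.0543) and Nkd1 (0.37, adjusted p = 0.0540) were just outside the threshold in the authors' deposited table.

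Levels between genes were compared as back-transformed normalized counts per kilobase of annotated exon. In WT, Ctnnb1 was highest with 1248 ± 71.7 (SD, n = 3), followed by Apc with 443 ± 23.1 and Nkd1 with 365 ± 26.6. Axin2 followed with 162 ± 21.2, then Sox17 with 132 ± 17.2, Apcdd1 with 112 ± 11.1, Lef1 with 93.2 ± 15.0, Tcf7l2 with 89.5 ± 6.91, Tcf7 with 81.9 ± 18.8 and Tcf7l1 with 64.2 ± 6.65. From Axin2 downward, neighbours in this order differed by less than the sum of their SDs. In Qk-KO, Tcf7l2 stood at 31.2 ± 24.4, Lef1 at 32.5 ± 11, Tcf7l1 at 30.1 ± 18.4 and Tcf7 at 39.9 ± 10.7, so that the 4 TCF/LEF factors could not be ordered. Exon lengths count every annotated isoform, and reads of Ctnnb1, Lef1, Tcf7l1, Axin2 and Sox17 may be shared with the opposite-strand genes Ulk4, Gm43352, Gm15401, Gm11670 and Gm37587, whose exons overlap theirs, as no source used here gives the strandedness.

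The promoters show whether members, called or not, hold the TCF/LEF recognition letters CTTTGA near their starts. RefSeq promoter windows of 300 bases around the start, on GRCm38.p6, the assembly behind mm10, were searched for 7 of the 10 genes. No window of Apc, Apcdd1 or Sox17 was searched, so the counts for the members leave these genes out. The windows searched were 13 in all, with those of Ctnnb1 and Nkd1, which were not called. Some genes have more than 1 window, and windows of Lef1 and of Ctnnb1 overlap, so the 13 are not separate promoters. On either strand CTTTGA was found in 1 of these 13 windows, against 16% of all 32851 windows of the same length. The longer CTTTGAT, which contains it, was found in none, against 3.73%. The window with matches belongs to an inner start of Lef1 (chr3:131156044-131156343, plus strand) and holds the reverse complement of the letters in capitals at both places. It is shown beside the windows of Axin2 (chr11:108920099-108920398, plus strand), whose mutant libraries were close together and below WT, and of the outer start of Tcf7l2 (chr19:55741560-55741859, plus strand), neither of which holds the letters in this window.
Lef1: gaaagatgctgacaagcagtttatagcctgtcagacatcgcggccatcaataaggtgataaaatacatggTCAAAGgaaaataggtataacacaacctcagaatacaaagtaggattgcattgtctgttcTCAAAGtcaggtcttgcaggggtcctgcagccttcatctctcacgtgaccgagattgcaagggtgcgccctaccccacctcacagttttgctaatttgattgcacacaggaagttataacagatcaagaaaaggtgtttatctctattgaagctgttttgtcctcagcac
Axin2: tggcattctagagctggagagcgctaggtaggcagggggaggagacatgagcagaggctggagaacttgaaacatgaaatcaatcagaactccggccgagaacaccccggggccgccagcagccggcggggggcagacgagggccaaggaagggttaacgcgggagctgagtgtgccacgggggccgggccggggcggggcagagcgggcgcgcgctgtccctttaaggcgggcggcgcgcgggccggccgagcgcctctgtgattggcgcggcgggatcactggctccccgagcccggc
Tcf7l2: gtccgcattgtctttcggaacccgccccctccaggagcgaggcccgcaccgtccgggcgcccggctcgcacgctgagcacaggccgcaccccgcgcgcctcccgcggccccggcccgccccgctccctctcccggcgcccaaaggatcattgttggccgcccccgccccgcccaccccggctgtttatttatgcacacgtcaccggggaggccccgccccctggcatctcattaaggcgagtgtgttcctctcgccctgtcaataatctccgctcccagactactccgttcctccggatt

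Quaking is known to bind RNA at ACTAAC or ACTAAT (with U for T in RNA), so these 6 letters were searched on the sense strand in 1 annotated 3' UTR per gene, that of the longest coding sequence in GENCODE M21. They were found in 32.1% of 12935 such UTRs of tested genes. Those of Tcf7l2, Tcf7l1, Tcf7, Lef1 and Axin2 hold none, and among UTRs within 20% of their lengths 35.1%, 2.02%, 37.9%, 33.1% and 35.6% hold at least 1. Ctnnb1 holds 2 (26.7% of UTRs of like length hold any), Sox17 holds 1 (22.9%), Nkd1 holds 1 (37.0%), Apc holds 3 (67.3%) and Apcdd1 holds 2 (93.7%). Those of Ctnnb1, Sox17 and Nkd1 are shown with 10 bases on either side and the letters searched in capitals. They describe the sequence only.
Ctnnb1 site 1: tgcctgacacACTAACcaagctgagt
Ctnnb1 site 2: ggtgtagaacACTAATtcataatcac
Sox17 site 1: agtcagagaaACTAATcaaaataaag
Nkd1 site 1: ttgttactccACTAATatttagccag

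Among the other genes of the pathway, 131 of 168 listed passed the filter on low values, of which 46 fell, 16 rose and 69 were not called, with a median change of -0.31 relative to 0.03 over all tested genes. The share called was 47.3%, against 28.6% of all genes. Directions below are relative to the median gene. Scaling by library total adds the same 1.06 to every gene's change. List medians under that scaling, 0.20 to 1.25 for these 8 lists, are therefore the same results shifted and no separate check.

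Wnt ligands were mixed. Wnt1, Wnt3a and Wnt8a were at 0 in all libraries, and of 8 tested, Wnt7a, Wnt7b, Wnt5a and Wnt9a fell and Wnt3 rose (median -0.30, and 0.76 scaled by library total). Wnt7a and Wnt7b are the ligands through which neural cells signal to brain endothelium. Log2 values of Wnt7a were 8.77, 8.96 and 8.94 in WT, against 5.83, 6.37 and 5.83 in Qk-KO, which did not overlap. It fell by 2.88 ± 0.19 (SE, limma adjusted p = 8.73e-05), and Wnt7b fell by 2.60 ± 0.18 (limma adjusted p = 0.000108). The log2 fold changes in the authors' deposited table are larger, -3.79 for Wnt7a and -3.26 for Wnt7b. Wnt5a, a ligand of the non-canonical branch, fell by 1.34 (-1.97 in the authors' deposited table), while Wnt3, a canonical ligand, rose by 0.98 ± 0.11 (limma adjusted p = 0.000639). With Qk-KO replicate 1 as the only mutant library, 1 ligand rose and 2 fell, and Wnt5a was not among the called (-1.22, limma adjusted p = 0.0908).

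Receptors and co-receptors were lower. Of 22 tested, 16 fell, 1, Fzd8, rose and 5 were not called, with a median of -0.86 (0.20 scaled by library total). Fzd2, a Frizzled receptor, fell by 2.61 ± 0.17 (limma adjusted p = 8.73e-05), with Lgr6, an R-spondin receptor (-2.62), the receptor gene Fzd10 (-1.97) and the co-receptor gene Lrp4 (-1.08). The authors' deposited table gives -3.39 for Fzd2, -3.52 for Lgr6 and -3.96 for Fzd10. In Qk-KO replicate 1 alone 10 fell and none rose by limma, with a median of -0.78. Of the 7 tested genes of ligand secretion and extracellular carriage, 4 fell and none rose (median -0.63, and 0.42 scaled by library total). They were Gpc6 (-1.66) and Gpc4 (-1.60), glypicans of the cell surface, Ndp (-0.94), which encodes the Frizzled ligand norrin, and Tinagl1 (-0.63), which was not called with WT replicate 1 left out, nor with WT replicate 3 or with Qk-KO replicate 2 (limma adjusted p = 0.0569, 0.0557 and 0.0635). Ndp was not called in Qk-KO replicate 1 alone (-0.84, limma adjusted p = 0.0646).

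**Figure D3:**
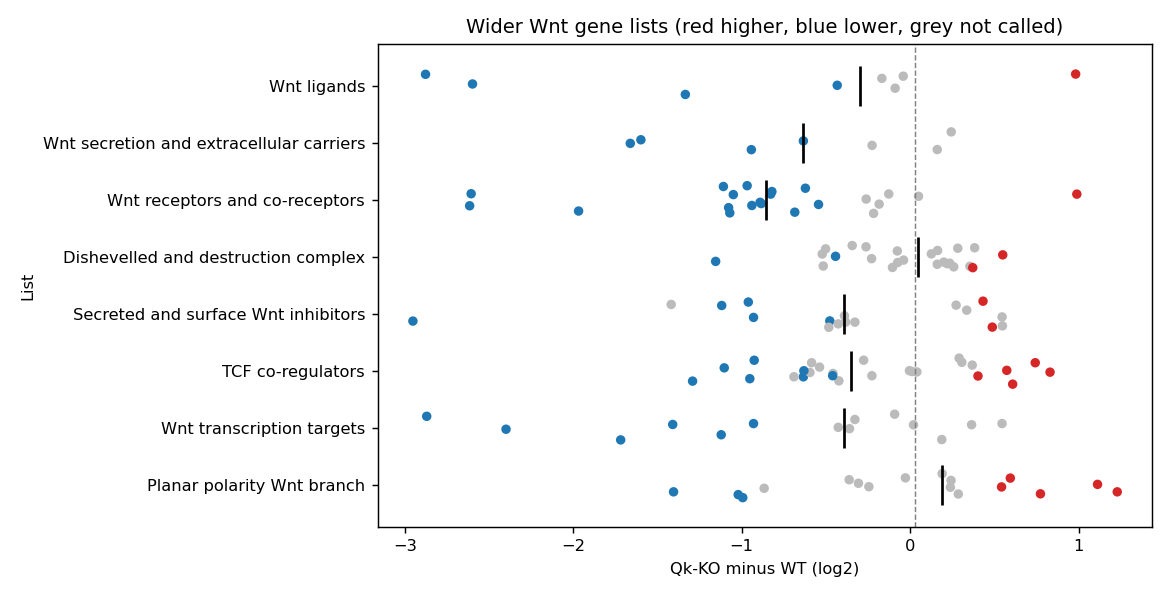
Change of each tested gene (x axis, Qk-KO minus WT, log2) in 8 lists of Wnt pathway genes (y axis), red called higher, blue called lower, grey not called, with list medians as black bars and the median of all tested genes dashed. The list labelled secreted and surface inhibitors also holds intracellular ones. In the authors' scaling receptors lie lowest (median -0.86) and the Dishevelled and destruction complex list lies at 0.04. Scaling by library total adds the same 1.06 to every gene, which makes these medians 0.20 and 1.10.

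Genes of Dishevelled and the destruction complex were mostly not called. Of 24 tested genes 20 were not called, 2 rose and 2 fell (median 0.04, and 1.10 scaled by library total). Apc2, the relative of Apc, fell by 1.16 ± 0.12 (limma adjusted p = 0.000418), and the casein kinase gene Csnk1a1, whose product primes beta-catenin for degradation, rose by 0.55 ± 0.12 (limma adjusted p = 0.0129). Csnk1a1 was not called without WT replicate 3 or Qk-KO replicate 2 (limma adjusted p = 0.0601 and 0.0658). Amer1, a beta-catenin inhibitor (-0.44), and Csnk1e (0.37) lost their calls without any of WT replicates 1, 2 and 3 or Qk-KO replicates 2 and 3 (limma adjusted p from 0.0587 to 0.146). Without Qk-KO replicate 1 this list had 4 genes higher and 7 lower, and without any other 1 library at most 1 in each direction, while calls over all genes went from 4330 to 5633 without Qk-KO replicate 1 and to between 2370 and 3838 without any other.

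Secreted, surface and intracellular Wnt inhibitors, taken as 1 list, were mixed as well. Of 17 tested, 5 were lower and 2, Kremen1 and Dact1, higher (median -0.39, and 0.67 scaled by library total). Sfrp5, a secreted Frizzled-related protein, fell by 2.95 ± 0.18 (limma adjusted p = 8.73e-05), and the authors' deposited table gives -3.87. Also lower were Dkk3 (-1.12), Znrf3, a ubiquitin ligase that removes Frizzled receptors (-0.93), and Cxxc4 (-0.96, against -1.71 in the authors' deposited table). In Qk-KO replicate 1 alone the last 2 were not called, at -0.49 and -0.57 (limma adjusted p = 0.0674 and 0.167), and in that contrast the list had 1 gene higher and 2 lower. Without Qk-KO replicate 2, WT replicate 2 or WT replicate 3 no inhibitor was called higher by limma, and without WT replicate 1 or Qk-KO replicate 1 only 1 was.

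TCF co-regulators moved in both directions, 5 of 26 tested higher and 7 lower, with a median of -0.35 (0.71 scaled by library total) that was 0.16 in Qk-KO replicate 1 alone. The corepressor gene Ctbp1 rose by 0.83 ± 0.11 (limma adjusted p = 0.00155) and Aes, a short Groucho-family gene, by 0.74 ± 0.11 (limma adjusted p = 0.00229). Sox18 (-1.10) and the kinase gene Tnik (-0.63) fell. Sox18 is also on the endothelial marker list. The number higher was 3 without WT replicate 1 or 3. The number lower was 4 without Qk-KO replicate 2 or WT replicate 3 and 14 without Qk-KO replicate 1.

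Of 14 tested genes listed as Wnt transcription targets 6 fell and none rose (median -0.39, and 0.67 scaled by library total). Sox9 fell by 2.87 ± 0.26 (limma adjusted p = 0.000249), as did Vegfa (-2.40), Nrcam (-1.72) and Tnfrsf19 (-1.12). Sox9 is a transcription factor highly expressed in astrocytes, Vegfa an angiogenic factor induced by hypoxia, and Nrcam an adhesion molecule of nodes of Ranvier. In the planar polarity branch, 5 of 17 tested rose and 3 fell (median 0.19, and 1.25 scaled by library total). Daam1, a formin bound by Dishevelled, rose by 1.11 ± 0.17 (limma adjusted p = 0.00274) and Prickle1 by 0.77. The polarity genes Vangl2 (-1.41) and Celsr1 (-0.99) fell. Without Qk-KO replicate 1, 6 genes of this branch were lower.

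Markers of other cell types moved in the same libraries. In bulk RNA, fewer cells of a type and less RNA per cell cannot be told apart. Of 20 endothelial markers, 18 fell and none rose (median -0.93, and 0.13 scaled by library total). Their summed level was 51448 to 72803 normalized counts in WT and 32870 to 34987 in Qk-KO, and none of them was at 0. Cldn5, claudin 5 of the endothelial tight junction, fell by 1.01 ± 0.22 (limma adjusted p = 0.0112). The endothelial median was -0.99, -0.88 and -0.81 in Qk-KO replicates 1, 2 and 3, beside -0.80, -0.76 and -0.87 for Apcdd1 and -0.63, -0.75 and -0.61 for Axin2. For Lef1 the values were -1.03, -1.85 and -1.80, for Sox17 -0.79, -1.08 and -0.55, and for Tcf7 -0.62, -1.21 and -1.30. Mural cell and fibroblast markers had a median of -0.80 (0.26 scaled by library total), with 12 of 16 lower, and 8 lower without WT replicate 1. The part of these cells in the falls of Lef1, Axin2, Apcdd1, Sox17 and Tcf7 was not tested.

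Astrocyte markers had the lowest median, -2.72 (-1.67 scaled by library total), with 17 of 18 lower. The other, Gfap, went the other way without passing (0.81, limma adjusted p = 0.0526), and 1 marker was called higher without Qk-KO replicate 1. Their summed level was 181898 to 224297 normalized counts in WT and 24441 to 37867 in Qk-KO. Wnt7a, Wnt7b, Fzd2, Lgr6, Sfrp5 and Sox9 fell by 2.60 to 2.95 in the same libraries, and the part of astrocytes in this was not tested. Microglia and macrophage markers were higher, 7 of 16 with 1 lower (median 1.21), with a summed level of 9677 to 15184 normalized counts in WT and 23496 to 89720 in Qk-KO, and their median was 0.80, 0.87 and 2.36 in Qk-KO replicates 1, 2 and 3. The number higher was 4 without WT replicate 1 and 2 without WT replicate 2 or WT replicate 3.

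**Figure D4:**
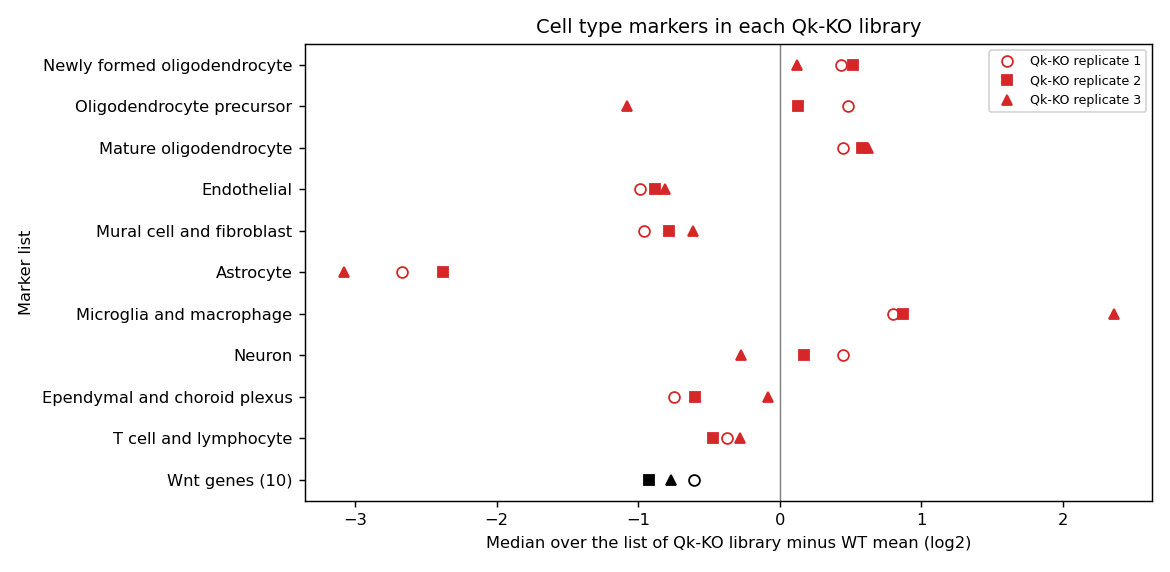
Median over each marker list (y axis) of the difference between a Qk-KO library and the WT mean (x axis, log2), open circles for replicate 1, squares for replicate 2 and triangles for replicate 3, with the 10 Wnt genes in black. In the authors' scaling endothelial medians are -0.99, -0.88 and -0.81 and those of the Wnt genes -0.61, -0.92 and -0.77. Scaling by library total adds the same 1.06 to every gene's mean change, which makes the endothelial median 0.13.

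Among markers of the oligodendrocyte lineage, of 16 markers of newly formed oligodendrocytes without Tcf7l2, 6 rose, 1 fell and 9 were not called (median 0.38, and 1.43 scaled by library total), with medians of 0.43, 0.52 and 0.12 in Qk-KO replicates 1, 2 and 3. Of 20 mature markers 8 rose and 3 fell (median 0.49), and 3 rose without Qk-KO replicate 2, and likewise without WT replicate 1 or 3. Precursor markers had medians of 0.48, 0.13 and -1.08 in the 3 mutant libraries, with 3 of 13 lower, and 1 lower without WT replicate 3. Of 15 tested neuron markers 3 rose (median 0.19), but 1 without WT replicate 1, 2 or 3 and 0 without Qk-KO replicate 2 by limma. Of 10 ependymal and choroid plexus markers 2 fell (median -0.39, and 0.67 scaled by library total), with 5 lower without Qk-KO replicate 3 and 1 without WT replicate 3.

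The 5 genes whose pattern over the 6 libraries was most like that of Tcf7l2, among 13175 named genes, were Kmt2a, Nfat5, Dusp11, Notch1 and Srcap (Pearson r from 0.9958 to 0.9977, a description over libraries that share depth and kind). Srcap, a chromatin remodeller gene, had log2 values of 12.24, 12.10 and 12.19 in WT, against 11.83, 10.01 and 9.92 in Qk-KO. As for Tcf7l2, replicate 1 lay near WT and the others far below. Its change was -1.59 ± 0.45 (SE, limma adjusted p = 0.0327), against -0.34 in Qk-KO replicate 1 alone. The changes of Kmt2a, a histone methyltransferase gene, Nfat5, Dusp11 and Notch1 were -0.74, -1.03, -0.39 and -0.52 (limma adjusted p = 0.0329, 0.0187, 0.0704 and 0.0477). Kmt2a, Notch1 and Srcap lost their calls without any 1 library other than Qk-KO replicate 1, and Nfat5 with WT replicate 1, 2 or 3 left out, or Qk-KO replicate 2 (limma adjusted p from 0.0546 to 0.165). Qk-KO replicate 1 as the only mutant library gave, for Kmt2a, Nfat5, Dusp11, Notch1 and Srcap, -0.23, -0.39, -0.11, -0.17 and -0.34. These 5 genes were chosen for likeness to Tcf7l2 in the same libraries, so their sharing its pattern is no separate result. Of the members, Tcf7l1 (r = 0.979) and Apc (0.967) were closest to Tcf7l2, before Lef1 (0.952) and Tcf7 (0.940).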

How the data were processed

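RNA was sequenced from 6 libraries of freshly isolated mouse oligodendrocytes, 3 WT and 3 Qk-KO. Per the submitters' processing notes, FastQC, TopHat2 2.0.14, featureCounts, DESeq2 and mm10 were used. The authors deposited per-library log2 values, which from their behaviour are DESeq2 regularized log2 values and not counts, a mean normalized count (signal) per feature, and their own comparison with log2 fold changes, a test statistic (score) and p-values. No count test was therefore run. Of 46983 features, 20968 had no read in any library.

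Limma 3.58.1 (R 4.3.3) with a mean-variance trend was fitted to the log2 values of the 15153 features whose mean normalized count reached 20, with genotype as the only term, and p-values were adjusted over all of them by Benjamini and Hochberg (two-sided, threshold 0.05). Values were not further normalized and no pseudocount was added. Levels per kilobase are back-transformed values divided by exon length from GENCODE M21, joined by gene identifier without its version. Approximate reads came from the steps between the lowest values, which give each library's size factor. The fit was also run on simulated data with 15153 genes, of which 200 were changed, with independent noise and no kinds of library. It called 0% of changes of 0.5, 53.7% of changes of 1 and 87.9% of changes of 2 log2 units, and 6.93% of its calls were unchanged genes. In the data 28.6% of genes were called, which loosens the adjusted threshold, so these rates describe the simulation and not this comparison.

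The 10 genes were given by name. Further genes named are up to 4 called genes by adjusted p in each wider list (or the 2 with the highest mean where fewer than 2 were called), and the 5 named genes with the highest correlation with Tcf7l2; Wnt9a, Fzd8, Kremen1, Dact1 and the example marker Cldn5 were named after their values were seen. Members, lists and tests were chosen with earlier results of these data known. Alternatives covered filters, scaling, limma options, the authors' comparison, library type, number series, a replicate block and leaving out each library.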

Additional observations from a re-analysis of the deposited data

How the results depend on the processing

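Of the 7 calls among the 10 Wnt genes, those of Lef1, Axin2, Apcdd1 and Sox17 were kept without any 1 library, and those of Tcf7l2, Tcf7l1 and Tcf7 were not. Leaving out each library gave 2370 to 5633 calls over all genes (4330 with all 6), 4 to 8 among the Wnt genes, and a change of -2.38 to -1.42 for Tcf7l2. Scaling by the total outside ribosomal features gave 3810 calls, 7 among the Wnt genes, and -1.74 for Tcf7l2. Scaling by library total gave 2447 calls, of which 97.3% were higher against 48.2% in the authors' scaling, 0 among the Wnt genes, and -0.73 for Tcf7l2. Changes of sign under that scaling were Tcf7 0.015, Ctnnb1 1.04, Apc 0.64, Axin2 0.40, Apcdd1 0.25, Sox17 0.25, Ndp 0.12, Tinagl1 0.42, Amer1 0.61, Znrf3 0.13, Cxxc4 0.10, Tnik 0.43, Celsr1 0.064, Kmt2a 0.32, Nfat5 0.029, Dusp11 0.67 and Notch1 0.54, since it adds the same 1.06 to every gene. Library type as a term gave 2258 calls, 2 among the Wnt genes and -0.59 for Tcf7l2 (limma adjusted p = 0.0733), and Qk-KO replicate 1 alone gave 2355, 3 and -0.59 (limma adjusted p = 0.0513). Library type as a term and Qk-KO replicate 1 alone give equal changes, since no WT library has a low ribosomal share. With no filter on low values Tcf7l2 kept its change of -1.79 but not its call (limma adjusted p = 0.0557), with more features adjusted over. Ctnnb1, near 0, turned sign with scaling outside ribosomal features (0.022), sample quality weights (0.017), the authors' deposited table (0.01) and number series (0.055), and without WT replicate 1 (0.007) or Qk-KO replicate 1 (0.14), over a leave-one-out range of -0.20 to 0.14; the cause was not tested. The replicate block gave 4345 calls, 8 among the Wnt genes (Apc added, limma adjusted p = 0.0477) and -1.79 for Tcf7l2; deviations of same-numbered libraries correlated at 0.104, 0.005 and 0.082, so the numbers were not taken as pairs, and WT replicate 2 did not correlate best with its own number. Apc was also called with quality weights, whose fit stopped before full convergence, and with number series (limma adjusted p = 0.0328 and 0.0380). Without Qk-KO replicate 1, which leaves only mutant libraries of low ribosomal share, Apc was called as well (-0.54, limma adjusted p = 0.0112). Depth limits low genes in WT: Tcf7 had 79 to 133 reads and Cxxc4 37 to 48.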
